A study of Mus musculus with 51 samples.

Results

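The step from the 8-cell stage to the morula was followed in mouse embryos made by in vitro fertilisation (IVF). The samples were 3 single IVF embryos at the 8-cell stage, taken 62 h after sperm addition, and 3 single IVF morulae, taken at 72 h, which are 6 of the 51 arrays of the study. Every probe set with exactly 1 gene symbol entered, 34945 of 45101, and the one with the largest SD over all 51 arrays stood for its gene, which gave 18193 genes. The study compared clones, with Sertoli cells as nuclear donors, with IVF embryos from the 1-cell stage to the blastocyst, with metaphase II (MII) oocytes as the starting point, on Affymetrix arrays. Each array held the amplified RNA of 1 oocyte or embryo, with 3 arrays a stage for IVF and 5 for clones. The strain label of the IVF embryos is B6D2F1×B6D2F1, and the clones, used below for the same step, had B6CBF1 Sertoli donor cells and B6D2F1 recipient oocytes. All embryos grew in KSOM medium under 5% O2, and no group carried a transgene or a deletion in the labels. Each value is a mixture over all cells of an embryo, so fewer cells of a type and less RNA per cell cannot be told apart.

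Around this step the loosely attached blastomeres flatten against each other through E-cadherin, a process called compaction, and each cell acquires an apical and a basal side. Polarised outer cells keep Hippo signalling low and turn towards trophectoderm, the epithelium that will pump fluid into the blastocyst, while inner cells keep the pluripotency programme. Metabolism shifts in the same window from pyruvate and lactate towards glucose.

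The deposited values are log2 values centred for each probe set, so only differences between embryos carry meaning and no absolute level or detection was judged. Pairs of embryos of 1 stage correlated with r between 0.646 and 0.749 over the 18193 genes, and pairs from different stages between 0.127 and 0.234. The median SD between embryos was 0.177 at the 8-cell stage and 0.157 in morulae. The bacterial hybridisation controls, which measure the array and not the embryo, did not overlap between the groups, from -0.44 to -0.24 on the 8-cell arrays and from -0.04 to 0.23 on the morula arrays (difference 0.47, two-sided exact permutation p = 0.1, the smallest p that 3 against 3 allows). The root mean square deviation of an embryo from its stage mean, over all genes, did not overlap either. This measure of the spread between embryos ran from 0.563 to 0.604 at the 8-cell stage and from 0.482 to 0.551 in morulae (exact p = 0.1). The 3' minus 5' difference of Actb and Gapdh, a measure of RNA quality and amplification, had means of -0.39 and -0.76 (exact p = 0.2). The part of these measures in the results was not tested beyond fits with the hybridisation controls or the 3' minus 5' difference as a covariate, the latter with 1111 rises and 1633 falls. The labels call the replicates biological, and p-values measure the spread between these single embryos.

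From the 8-cell stage to the morula 1290 genes rose and 1845 fell at an adjusted p under 0.05 in limma, 17.2% of those tested (7.09% higher and 10.1% lower). The changes were large: 1138 of the rises and 1637 of the falls were at least 2-fold, and 582 and 813 were at least 4-fold. The median difference of all genes was 0.00. The values of the 2 stages did not overlap in 5816 genes (32.0%), so non-overlap alone is common. It is also favoured where genes are chosen by a large difference or a small adjusted p. With the hybridisation controls as a covariate 789 genes rose and 1164 fell, and quantile normalization gave 2206 and 2178. Of 277 called genes followed through all alternatives, mainly members of the gene lists below, 205 kept their call without each of the 6 embryos in turn and 198 with the hybridisation covariate.

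**Figure D1:**
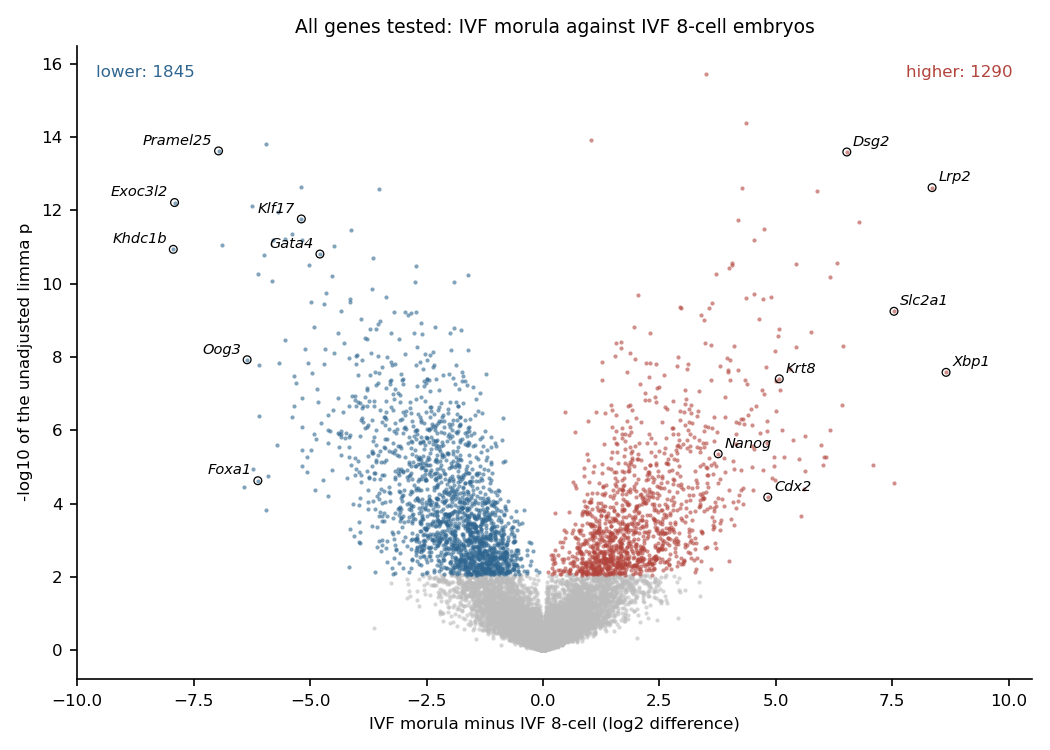
Difference between IVF morulae and IVF 8-cell embryos on the log2 scale (x axis, 3 embryos a group) against -log10 of the unadjusted limma p (y axis) for 18193 genes. Red points are the 1290 genes that rose, blue points the 1845 that fell, grey points the genes past no threshold, and circled genes are named in the text.

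The largest rise belonged to Xbp1, a transcription factor of the unfolded protein response and of secretory cells, on chromosome 11 (GRCm38.p6, chr11:5520641-5525993). It was at -3.02, -3.02 and -0.18 in the 8-cell embryos and at 6.18, 7.21 and 6.35 in the morulae, a difference of 8.65 ± 0.82 (SE; adjusted p = 2.95e-06). Lrp2, the endocytic receptor megalin (chr2:69424335-69586029), was at -0.15, 1.64 and -0.06 and then at 8.60, 9.39 and 8.50 (difference 8.35 ± 0.34, adjusted p = 4.88e-10). Slc2a1, the glucose transporter GLUT1 (chr4:119108745-119137330), was at -7.56, -5.60 and -6.80 and then at 1.06, 0.63 and 0.95 (difference 7.54 ± 0.54, adjusted p = 1.64e-07). In all 3 genes the lowest morula stood far above the highest 8-cell embryo. Non-overlap was a condition for the 12 leading rises, so only the width of the gap is described. The peptidase gene Enpep rose by 7.54 ± 1.26, and its 8-cell embryos were unlike each other, at -3.86, 1.00 and -0.80, against a mean of 6.32 ± 0.31 (SD, n = 3) in morulae. The desmosomal cadherin gene Dsg2 was at -0.11, -0.17 and -0.09 in 8-cell embryos and at 7.11, 5.83 and 6.25 in morulae (difference 6.52 ± 0.23, adjusted p = 7.78e-11). Tpp1, a lysosomal peptidase, was the most even of the group, at -3.09, -2.99 and -3.09 and then at 3.30, 3.17 and 3.32 (difference 6.32 ± 0.36). The other 6 of the 12 leading rises were Akr1b8 (an aldo-keto reductase, 7.08 ± 1.07), Dennd1b (an activator of Rab GTPases, 6.78 ± 0.32), Cryab (a small heat shock protein, 6.44 ± 0.54), Fmnl2 (a formin that builds actin filaments, 6.41 ± 0.71), Ccng1 (cyclin G1, a p53 target, 6.17 ± 0.77) and Sdc4 (syndecan-4, 6.16 ± 0.38). None of these 12 had been called from the 4-cell to the 8-cell stage, a step at which only 1.98% of all genes were called.

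Among the largest falls were genes known from oocytes and early cleavage. Khdc1b, a KH-domain gene (chr1:21383556-21386384), was at 0.15, 0.12 and -0.03 in 8-cell embryos and at -8.47, -8.31 and -6.81 in morulae, a difference of -7.94 ± 0.43 (adjusted p = 7.82e-09). Pramel25, a PRAME-like gene, was at 1.72, 1.58 and 1.27 and then at -5.44, -5.36 and -5.53 (difference -6.97 ± 0.24). Oog3, another PRAME-like gene first described in oocytes, whose probe set can match copies of the family, was at 0.95, 1.26 and 0.67 and then at -7.43, -3.95 and -4.80 (difference -6.35 ± 0.56). The oocyte transcript Omt2a (-5.95 ± 0.20) and Accsl (-6.00 ± 0.33) belong with them. Their means were higher still in MII oocytes, at 3.53 for Khdc1b, 5.85 for Pramel25 and 5.08 for Oog3. A second set was low in MII oocytes, high at the 4-cell and 8-cell stages and low again in morulae. Exoc3l2, related to a subunit of the exocyst (chr7:19463287-19496762), was at 8.58, 6.84 and 7.54 in 8-cell embryos and at -0.23, -0.57 and 0.02 in morulae (difference -7.91 ± 0.35, adjusted p = 9.31e-10). Nupr1, a small stress-response protein, was at 5.50, 4.44 and 4.13 and then at -1.61, -1.01 and -1.61 (difference -6.10 ± 0.71). Arg1, the urea cycle arginase, was at 7.38, 6.55 and 6.71 and then at -0.05, -0.01 and 2.41 (difference -6.09 ± 0.56). The third morula kept a higher Arg1 value than the other two, without reaching the 8-cell embryos. Foxa1, a pioneer transcription factor of endoderm, fell unevenly, from 8.51, 8.14 and 8.61 to -0.13, 4.34 and 2.68 (difference -6.12 ± 1.01, adjusted p = 0.00049). Exoc3l2, Nupr1, Arg1 and Foxa1 had means of -0.42, -1.57, -0.12 and -0.35 in MII oocytes. The remaining leading falls were Enpp3 (an ectonucleotide pyrophosphatase, -6.41 ± 1.10), Klhl8 (a ubiquitin ligase adaptor, -6.25 ± 0.28) and Tmcc3 (a coiled-coil membrane protein, -6.13 ± 0.37), and a second probe set of Tmcc3 gave 0.11.

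**Figure D2:**
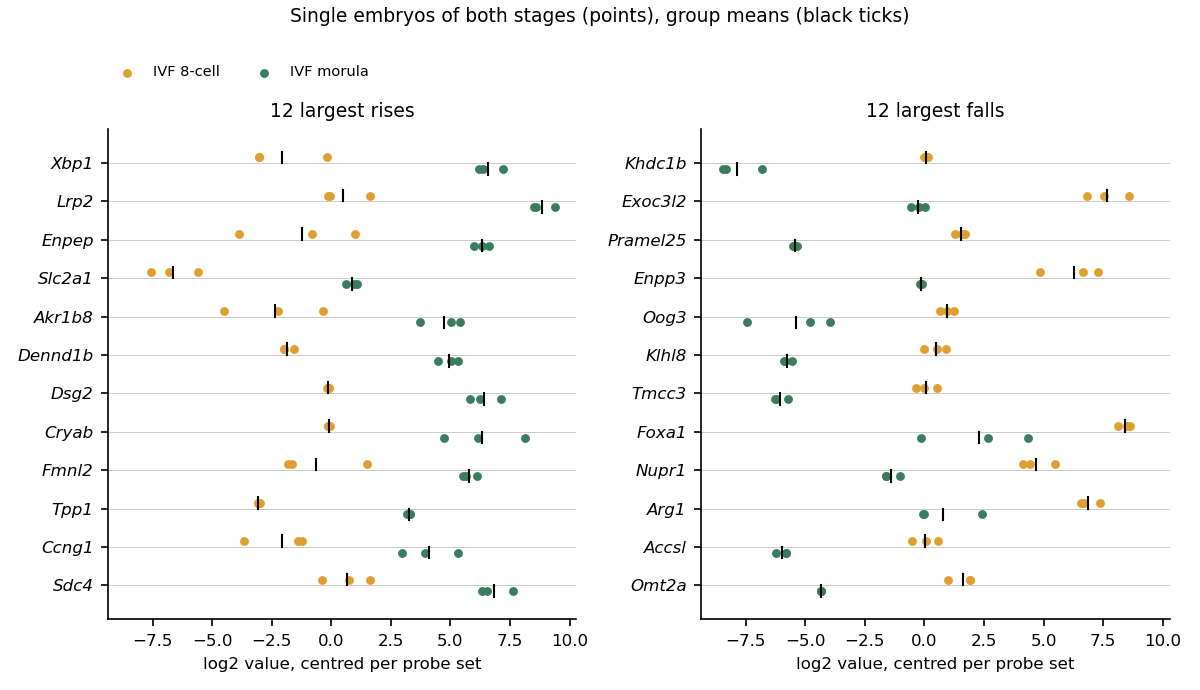
Log2 values, centred per probe set (x axis), of each IVF 8-cell embryo (orange) and each IVF morula (green) for the 12 largest rises and the 12 largest falls (y axis); black ticks are means of 3 embryos. The genes were chosen for not overlapping between the stages, and Foxa1, Oog3 and Cryab show the widest spread between morulae.

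Of 23 measured heat shock and unfolded protein genes, a list that holds Xbp1 itself, 10 rose and 1 fell, with a median difference of 0.37, and 8 of the 10 kept the call without each embryo in turn. The rises included chaperones of the endoplasmic reticulum (ER) and also the cytosolic Hsp90aa1 and Hsph1 and the mitochondrial Hspd1 and Hspe1, and the ER folding genes Pdia3 (-0.91), Pdia4 (1.10) and Dnajb9 (-1.24) were not called. Hsp90b1, the ER chaperone GRP94, was at -6.60, -4.68 and -2.39 in 8-cell embryos and at 1.89, 1.47 and 0.88 in morulae (difference 5.97 ± 0.81, adjusted p = 8.73e-05). Calr, the calcium-binding chaperone calreticulin, was at -1.75, -1.64 and -1.13 and then at 1.93, 2.29 and 1.63 (difference 3.46 ± 0.26, adjusted p = 2.52e-07). Hspa5, the ER chaperone BiP, was at -0.86, -0.40 and -0.28 and then at 2.42, 2.61 and 1.50 (difference 2.69 ± 0.39, adjusted p = 0.000175). All 3 chaperones were higher in each morula than in each 8-cell embryo. Canx, calnexin, rose by 3.29 ± 1.02, a call that ended without 8-cell replicate 2 or 3 or morula replicate 1 or 3 (adjusted p 0.0953, 0.113, 0.113 and 0.121). Herpud1, which takes part in ER-associated degradation, rose by 1.78 ± 0.32, and the mitochondrial chaperonin gene Hspe1 by 2.06 ± 0.28. The 1 member that fell was Atf6, the membrane-bound sensor of ER stress, from 0.71, 1.75 and 1.17 to -2.19, -0.34 and -0.17 (difference -2.11 ± 0.40, adjusted p = 0.0014). The stress-induced genes Ddit3, Atf3 and Trib3 were past no threshold, with Ddit3 at 0.07, Atf3 at 0.07 and Trib3 at 0.28.

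The ER stress element is the promoter sequence that ATF6 and XBP1 are known to bind with the factor NF-Y, and the members of this group that carry it are shown here because they include the chaperones above. It was searched as CCAAT and CCACG with 9 bases of any kind between them, on both strands of the RefSeq promoter windows (250 bases before to 50 after a start site, GRCm38.p6), a search chosen after the values had been seen. It stood in 20 of 18109 windows (0.110%), of 20 genes. Of these genes 7 rose, 0 fell and 13 were not called, and it stood in 7 of 1272 windows of rising genes (0.550%) and in 0 of 1934 windows of falling genes. The sequences below run 5′ to 3′ on the strand of the gene, with the element in capitals, and genes whose element lies on the other strand show its complement.
Hspa5 (chr2:34772015-34772053, plus strand): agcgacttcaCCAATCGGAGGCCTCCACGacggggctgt
Hsp90b1 (chr10:86705628-86705666, minus strand): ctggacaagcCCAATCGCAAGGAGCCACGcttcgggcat
Hsp90b1, second element (chr10:86705523-86705561, minus strand): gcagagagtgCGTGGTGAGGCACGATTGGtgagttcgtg
Calr (chr8:84847065-84847103, minus strand): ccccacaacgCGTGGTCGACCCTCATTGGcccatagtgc
Canx (chr11:50325790-50325828, minus strand): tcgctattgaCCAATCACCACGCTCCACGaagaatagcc
Pdia6 (chr12:17266481-17266519, plus strand): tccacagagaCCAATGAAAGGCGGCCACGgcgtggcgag
Syvn1 (chr19:6046522-6046560, plus strand): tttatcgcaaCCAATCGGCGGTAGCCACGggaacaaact
Creld2 (chr15:88819510-88819548, plus strand): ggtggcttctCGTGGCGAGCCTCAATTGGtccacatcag
Pdia6, a protein disulphide isomerase, rose by 2.67 ± 0.44 (adjusted p = 0.000516), Syvn1, the ubiquitin ligase of ER-associated degradation, by 2.37 ± 0.40 (adjusted p = 0.000533) and Creld2, an ER-resident protein induced by ER stress, by 1.31 ± 0.18 (adjusted p = 8.06e-05). Creld2 and Alg12 share 1 element between them, and Alg12 was not called (0.67 ± 0.30). Other carriers with ER functions were not called either, with Dnajc3 at -0.37, Derl3 at 0.37 and Ero1b at 1.06. The median difference of the 20 genes was 0.57. The related element, ATTGG and CCACG with 1 base between them, stood in 9 windows, among them that of Herpud1, and of its 9 genes 2 rose and 1 fell. Of 3 other motifs, all searched on both strands, GGAATG, read by TEAD factors, stood in 13.2% of all windows, 12.7% of those of rises and 10.8% of those of falls, and ATGCAAAT, read by OCT4, in 1.39%, 1.18% and 0.879%. TGAGTCA, read by AP-1 factors, stood in 4.52%, 4.32% and 3.10%. A match describes letters in these windows and shows no binding.

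Hspa5 carries the element close to its start site, as its 250 upstream bases show (chr2:34771840-34772089, plus strand, element in capitals).
Hspa5 upstream: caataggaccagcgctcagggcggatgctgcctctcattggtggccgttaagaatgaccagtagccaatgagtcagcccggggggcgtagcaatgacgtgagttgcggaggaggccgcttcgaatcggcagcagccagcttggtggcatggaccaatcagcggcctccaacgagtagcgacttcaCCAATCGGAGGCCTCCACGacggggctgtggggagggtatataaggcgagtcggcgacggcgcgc

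Genes of junctions, the cell cortex and polarity were among the rises, and genes of other parts of the same machinery were past no threshold. In the adherens junction and cortex list 6 of 20 genes rose and 0 fell, with a median of 0.37, and 5 of the 6 kept the call without each embryo. Cdh1, E-cadherin itself, was at 0.10, -0.17 and 0.01 in 8-cell embryos and at 0.94, 1.06 and 0.95 in morulae, a modest but even difference of 1.01 ± 0.22 (adjusted p = 0.0042) that lost its call when all 51 arrays shared 1 fit. Epcam, an epithelial adhesion molecule, rose by 3.67 ± 0.43, Ezr, the apical membrane-actin linker ezrin, by 3.45 ± 0.69, and Myh9, the heavy chain of non-muscle myosin, by 2.88 ± 0.26. Further variable probe sets gave lower differences, 1.91 for Epcam, 0.41 for Ezr and 1.22, 0.06 and 2.09 for Myh9. The catenin genes that bind E-cadherin were past no threshold, Ctnnb1 at -0.22 and Ctnna1 at 0.53. For apical-basal polarity 7 of 18 rose and 2 fell (median 0.45), and 5 of the 7 rises kept the call without each embryo. A fit of the 6 arrays alone gave 3 rises. By the most variable probe set of each gene, the rises held most of the PAR complex. Pard3, its scaffold, was at -4.46, -4.45 and -4.44 in 8-cell embryos and at -1.27, 1.37 and 0.00 in morulae (difference 4.48 ± 0.55, adjusted p = 3.5e-05). Pard6b was at -2.78, -3.78 and -2.68 and then at 0.00, 0.82 and 0.27 (difference 3.44 ± 0.46). Both genes were higher in each morula, with a wide spread of Pard3 between morulae. Pard6g (3.25 ± 0.51), the partner kinase gene Prkci (2.53 ± 0.44) and the basolateral scaffold gene Dlg1 (2.06 ± 0.48) rose as well, and the polarity kinase gene Mark2 fell by 1.48 on the log2 scale. Other probe sets gave lower differences, 2.46, 0.17 and 0.15 for Pard3, 2.73 for Pard6b, 0.01 for Pard6g and 0.14 for Prkci.

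Desmosomes and keratins, which tie epithelial cells together and form their filaments, rose in 5 of 13 genes and fell in 0, with a median of 0.87. Krt8 was at 0.33, 0.46 and -1.35 in 8-cell embryos and at 5.47, 4.56 and 4.64 in morulae (difference 5.07 ± 0.49, adjusted p = 4.06e-06). Its partner Krt18 was at 1.71, 1.03 and 1.02 and then at 4.83, 4.24 and 4.02 (difference 3.11 ± 0.53, adjusted p = 0.000685). The stages did not overlap in either keratin. Pkp2, plakophilin-2, rose by 5.61 ± 0.97, with 8-cell embryos at -5.28, 0.00 and -3.02, while a weakly varying second probe set gave -0.04. Dsp, desmoplakin, rose by 3.39 ± 0.99, and this call ended without 8-cell replicate 3 (difference 1.87, adjusted p 0.0906) or without morula replicate 1, 2 or 3 (adjusted p 0.0703, 0.07 and 0.0566). Of 14 tight junction genes 1 rose and 2 fell (median 0.01), shares near those of all genes, with 5 rises after quantile normalization and 0 falls with the hybridisation covariate. Ocln, occludin, rose by 1.74 ± 0.25, with no call for the mean of its probe sets, F11r, the adhesion molecule JAM-A, fell by 1.29 on the log2 scale, and Tjp1 was at 0.03. None of 5 gap junction genes was called, beside 17.2% of all genes. Of 10 genes for cavitation 2 rose and 3 fell. Atp1b1, the beta-1 subunit of the sodium pump, was at -0.73, -0.15 and -1.85 in 8-cell embryos and at 1.82, 1.16 and 1.00 in morulae (difference 2.23 ± 0.40, adjusted p = 0.00104). Atp1b3, the beta-3 subunit, went the other way, from 1.19, 0.81 and 0.60 to -0.90, -0.80 and -1.04 (difference -1.78 ± 0.22, adjusted p = 3.54e-05). The 2 beta subunits thus changed in opposite directions with no overlap in either. Aqp3, a water channel of the trophectoderm, was at 0.56, 0.00 and 0.37 and then at 1.68, 1.94 and 1.79, which did not pass the threshold (difference 1.49 ± 0.51, adjusted p = 0.061), with 3.07 and 0.48 for other variable probe sets, and Aqp9 fell by 1.83 on the log2 scale.

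Of 22 trophectoderm regulators 6 rose and 2 fell, with a median of 0.32. Cdx2, the caudal homeobox factor of trophectoderm, was at 0.44, -0.30 and 4.40 in 8-cell embryos and at 5.86, 7.20 and 5.95 in morulae (difference 4.83 ± 0.88, adjusted p = 0.00114). The third 8-cell embryo thus stood well above the other two and below every morula, and without it the difference was 6.27 (adjusted p = 2.88e-06). The call of Cdx2 ended when the 6 arrays were fitted alone, and a second, less variable Cdx2 probe set gave 0.01. Gata3, a zinc finger factor that acts beside Cdx2, was at 0.08, -0.48 and -1.32 and then at 1.89, 2.79 and 2.17 (difference 2.86 ± 0.40, adjusted p = 0.00011). Klf6 (3.80 ± 0.35) and Id2, an inhibitor of basic helix-loop-helix factors (4.72 ± 0.73), rose as well, with 0.64 for a less variable Id2 probe set. Tead4, the DNA-binding partner of YAP that starts Cdx2 expression, was at 1.85, 1.84 and 2.53 and then at 0.58, 0.29 and -0.56 (difference -1.97 ± 0.49, adjusted p = 0.00979), and without morula replicate 3 its adjusted p was 0.0548. Hand1, a trophoblast factor, was at 5.62, 4.07 and 5.81 in 8-cell embryos and at -0.01, -0.01 and 0.00 in morulae (difference -5.17 ± 0.64, adjusted p = 3.9e-05). Eomes (1.52), Tfap2c (0.03) and Elf5 (0.00) were past no threshold. In the Hippo pathway 0 of 21 genes rose and 4 fell, a count of 1 to 4 when single embryos were left out and of 0 when the 6 arrays were fitted alone. Only the kinase gene Stk4 of these 4 kept its call without each embryo, from 1.29, 2.20 and 1.01 to 0.00, 0.20 and -0.54 (difference -1.61 ± 0.30, adjusted p = 0.00129). Its call ended for the mean of all its probe sets. The transcript of Yap1, the coactivator of the pathway, differed by -0.51 with no call.

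The pluripotency list moved in both directions, with 5 of 22 rising and 7 falling (median 0.03). Nanog was at -0.23, 1.69 and -0.15 in 8-cell embryos and at 3.23, 5.00 and 4.36 in morulae (difference 3.76 ± 0.54, adjusted p = 0.000133). Sox2 was at -0.10, -0.66 and 0.10 and then at 2.39, 5.55 and 4.29 (difference 4.29 ± 0.82, adjusted p = 0.00155). Both factors of the inner cell mass were higher in each morula, and Tfcp2l1, a factor of naive pluripotency, rose by 5.62 ± 0.73. When the 6 arrays were fitted alone, the calls of Nanog, Sox2 and Tfcp2l1 ended, and 1 gene of the list rose. Pou5f1, which encodes OCT4, was at 0.29, 1.08 and 0.76 and then at 0.77, 1.53 and 0.80, which overlapped (difference 0.32 ± 0.31, adjusted p = 0.671). Klf17, a Krüppel-like factor of oocytes and cleavage embryos, was at -0.15, -0.33 and 0.63 and then at -5.43, -4.96 and -5.02 (difference -5.19 ± 0.24, adjusted p = 2.09e-09). Its relative Klf4 overlapped between the stages (0.19 ± 0.33), and the orphan receptor gene Esrrb fell by 2.74 on the log2 scale. Of 17 primitive endoderm genes 6 rose and 2 fell (median 0.22), and all 8 kept the call without each embryo. The rises were matrix and receptor genes. Lamc1, a laminin chain, was at -0.96, -0.81 and -1.38 and then at 1.95, 2.35 and 3.04 (difference 3.50 ± 0.47). Col4a1 (3.81 ± 0.86) and Col4a2 (3.22 ± 0.58), both chains of collagen IV, and Cubn, the endocytic partner of Lrp2 (3.16 ± 0.44), rose with it. Gata4, the endoderm transcription factor, fell from 2.95, 2.13 and 3.26 to -2.09, -1.97 and -1.96 (difference -4.79 ± 0.26, adjusted p = 1.01e-08). Amn, which anchors cubilin at the membrane, fell by 3.00 on the log2 scale, opposite to its partner. Gata6 overlapped, at 1.02, 0.83 and 0.87 and then at 0.39, 1.54 and 0.78, and so did Sox17 with a difference of 0.00.

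In the FGF list a receptor and an adaptor gene fell. Of 18 FGF pathway genes 1 rose and 5 fell (median -0.59), and 3 of the falls and 0 of the rises kept the call without each embryo. Fgfr4, an FGF receptor, was at 3.00, 2.71 and 3.58 in 8-cell embryos and at -1.51, -1.36 and -1.35 in morulae (difference -4.51 ± 0.51, adjusted p = 1.83e-05). The adaptor gene Grb2 fell by 2.09 on the log2 scale, without overlap. The ligand Fgf4 was uneven within both stages, at -1.18, -1.13 and 1.31 and then at -1.97, 1.50 and -4.29 (difference -1.26 ± 1.13, adjusted p = 0.634), and Fgfr2 differed by 0.23 ± 0.61. Of 28 Nodal, BMP and Wnt genes 4 rose and 1 fell (median 0.00), a share of 17.9% called, near the 17.2% of all genes. The BMP receptor gene Bmpr2 rose by 3.14 ± 0.73, with 0.94 for a second variable probe set. Its call ended when the 6 arrays were fitted alone and with the hybridisation covariate. Fzd4, a Wnt receptor, fell from 2.76, 3.90 and 3.73 to -0.06, -0.05 and -0.03 (difference -3.51 ± 0.26). The Notch list had 0 rises and 3 falls of 14 (21.4% called, beside 17.2% of all genes). The falls included the shedding proteases Adam17 (-1.97 ± 0.29) and Adam10 (-2.63 ± 0.60), although a second Adam10 probe set gave 0.10. For uterine signalling and implantation 4 of 24 rose and 1 fell (median -0.01), 20.8% called beside 17.2% of all genes. Ptges, the prostaglandin E synthase, was at -0.44, -0.07 and -0.71 and then at 4.22, 4.65 and 3.50 (difference 4.53 ± 0.23, adjusted p = 5.04e-09).

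**Figure D3:**
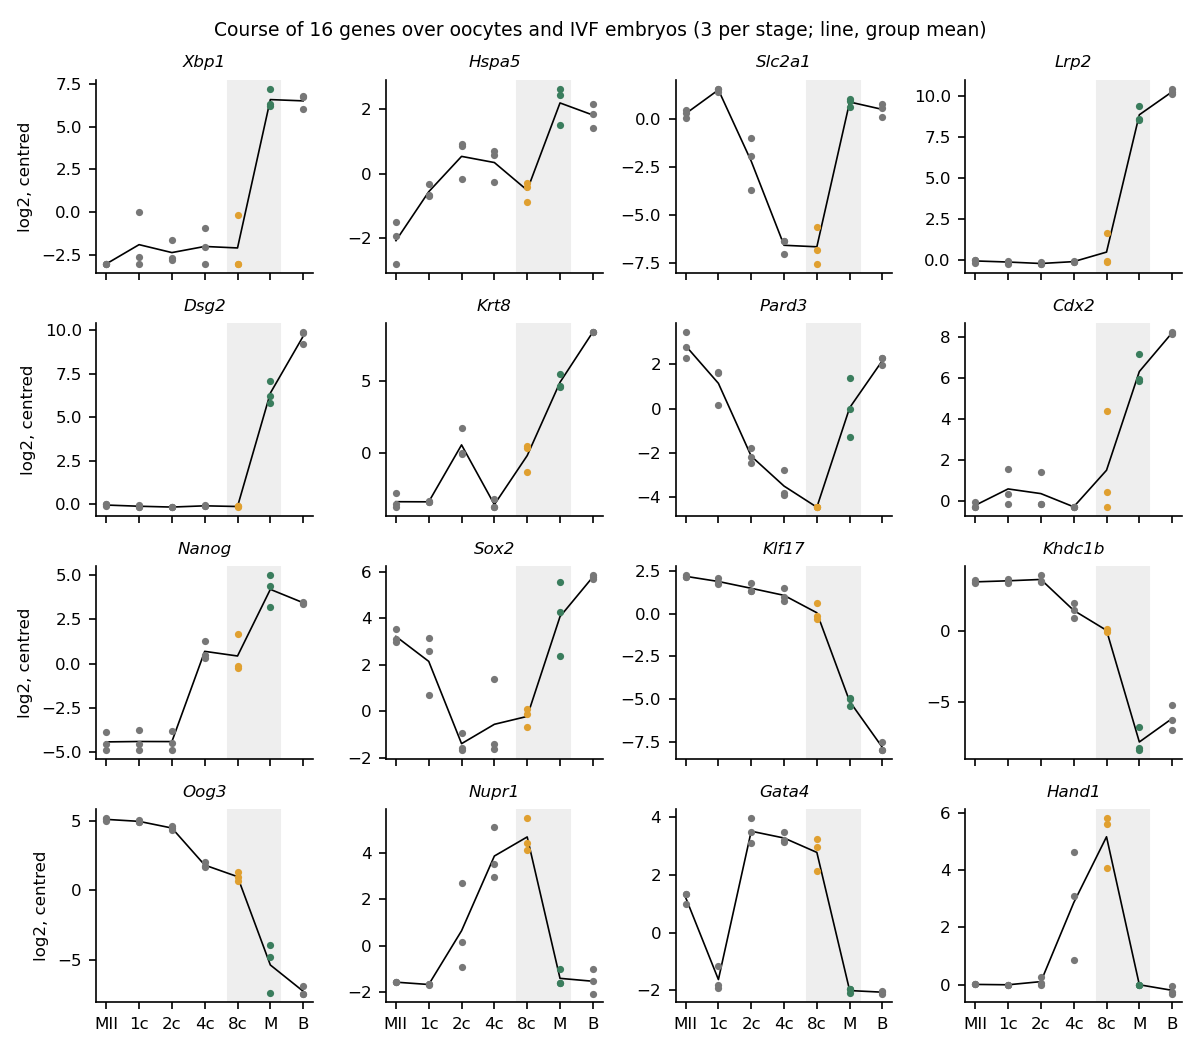
Log2 values, centred per probe set (y axis), of 16 genes in MII oocytes and IVF embryos of the 1-cell (1c), 2-cell (2c), 4-cell (4c) and 8-cell (8c) stages, morulae (M) and blastocysts (B), with 1 point per embryo and a line through the means of 3. The shaded band marks the step described: Lrp2, Dsg2 and Xbp1 left a flat course there, Slc2a1 and Pard3 returned from low cleavage values, and Gata4, Hand1 and Nupr1 dropped from cleavage values.

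In glucose metabolism 6 of 21 genes rose and 4 fell (median 0.03), with 4 and 3 that kept the call without each embryo. All 3 glucose transporter genes of the list rose, while Slc2a4, the transporter GLUT4, which is not on it, fell by 1.50 on the log2 scale (adjusted p = 0.0127). Beside Slc2a1, Slc2a3, the transporter GLUT3, was at -1.52, -0.67 and 0.17 in 8-cell embryos and at 1.95, 2.59 and 2.30 in morulae (difference 2.95 ± 0.34, adjusted p = 1.85e-05), and Slc2a8 rose by 1.67 ± 0.14. Pkm, pyruvate kinase, rose by 2.12 ± 0.40. Ldhb, the lactate dehydrogenase subunit of the oocyte, was at -0.36, -0.04 and 0.34 and then at -2.98, -3.98 and -4.42 (difference -3.77 ± 0.39, adjusted p = 6.77e-06), while Ldha differed by -0.52 with no call. Pdk1, a kinase that restrains pyruvate dehydrogenase, was at -1.25, -0.23 and -0.11 and then at -4.99, -4.97 and -4.76 (difference -4.38 ± 0.60). The stages did not overlap in Slc2a3, Ldhb or Pdk1. Amino acid transporters were split, 4 of 20 up and 5 down: Slc38a1, a glutamine carrier, rose by 4.74 ± 0.23, and the glycine carrier gene Slc6a9 fell by 3.40 on the log2 scale. In fatty acid metabolism 5 of 23 rose and 1 fell (median 0.60). Scd2, a fatty acid desaturase, was at -0.66, 0.00 and -0.59 and then at 5.41, 5.77 and 4.85 (difference 5.76 ± 0.45, adjusted p = 4.55e-07). The binding proteins Fabp3 (4.41 ± 0.51) and Fabp5 (3.54 ± 0.57) rose with it, and the triglyceride synthase gene Dgat2 fell by 3.32 on the log2 scale. Sterol genes had 3 rises and 3 falls of 22, with the sterol sensor partner Insig1 up by 2.00 ± 0.24 and Sqle, squalene epoxidase, down by 2.39 on the log2 scale.

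Of 80 respiratory chain genes 15 rose and 1 fell, with a median of 0.42, and the other 64 were not called. Ndufc2, a subunit of complex I, was at -0.94, -0.18 and -0.70 in 8-cell embryos and at 2.10, 2.64 and 2.98 in morulae (difference 3.17 ± 0.35). The count of rises depended on the scaling, 39 after quantile normalization and 26 in a fit of the 6 arrays alone, and 9 of the 15 kept the call without each embryo. Mitochondrial ribosomal proteins (8 up and 6 down of 73), cytosolic ribosomal proteins (2 and 1 of 47) and the proteasome (4 and 2 of 48) had medians of 0.18, 0.08 and 0.24, and their rises were 24, 15 and 16 after quantile normalization. In the main fit 19.2%, 6.38% and 12.5% of these lists were called, beside 17.2% of all genes.

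The lists of oocyte and zygotic activation genes held more falls than rises. Of 24 maternal oocyte factors 12 fell and 2 rose, with a median of -1.20, and 10 of the 12 falls kept the call without each embryo. Zp3, a zona pellucida protein, was at 0.18, 1.45 and 1.17 in 8-cell embryos and at -3.80, -4.99 and -2.95 in morulae (difference -4.85 ± 0.49, adjusted p = 6.32e-06). Obox5, an oocyte homeobox gene, fell by 4.69 and Nlrp5, a scaffold of the subcortical maternal complex, by 4.04 on the log2 scale, both without overlap. Khdc3, a member of the same complex, went up, from 0.22, 0.20 and 0.00 to 2.76, 3.04 and 2.60 (difference 2.66 ± 0.52, adjusted p = 0.00195). Of 18 genes of zygotic activation and the 2-cell stage 6 fell and 1 rose (median -1.71), and all 6 falls kept the call without each embryo. Tcstv1 was at 4.13, 4.98 and 2.75 and then at 0.00, -0.61 and -0.57 (difference -4.34 ± 0.56, adjusted p = 5.14e-05), and Spz1 fell by 4.88 on the log2 scale, beside Klf17 above. Apart from Khdc3, the genes of these lists given here were higher in every 8-cell embryo than in any morula. Among the 5 other stages, MII oocytes and IVF embryos of the 1-cell, 2-cell, 4-cell and blastocyst stages, the falling genes had their highest mean at the 4-cell stage in 33.9% (all genes 20.0%), at the 2-cell stage in 26.4% (all genes 10.9%) and in MII oocytes or at the 1-cell stage in 32.5% (all genes 48.5%). The rising genes had it in the blastocyst in 59.2%, against 20.6% of all genes. These shares are descriptions and were not tested.

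The growth and mitosis lists held more falls than rises. Of 30 nucleolar ribosome biogenesis factors 12 fell and 1 rose (median -0.83), and 9 of the falls kept the call without each embryo. Nolc1, a nucleolar phosphoprotein, was at 3.07, 2.38 and 1.76 in 8-cell embryos and at -1.23, -0.29 and 0.25 in morulae (difference -2.83 ± 0.43, adjusted p = 0.000234). Rrp12, a factor of ribosomal subunit export, fell by 2.27 on the log2 scale, and nucleophosmin, Npm1, was at 0.09. Of 28 mitosis and spindle genes 12 fell and 0 rose (median -0.87), 11 of them without each embryo too. Ttk, the spindle checkpoint kinase, was at 0.80, 1.06 and 0.61 and then at -1.23, -1.26 and -1.06 (difference -2.01 ± 0.16, adjusted p = 4.67e-07). Aurkb, a kinase of the chromosomal passenger complex, fell by 2.19 and Cdc25b, an activator of cyclin-dependent kinase, by 3.50 on the log2 scale. Ccna2, cyclin A2, fell by 1.63 on the log2 scale, with 0.05 for a second, less variable probe set. Replication genes went both ways, with 3 of 29 up and 6 down (median -0.29): Mcm4, a subunit of the replicative helicase, rose by 1.15 ± 0.13 and its loading partner Cdc45 fell by 1.74 on the log2 scale. In the chromatin list 4 of 29 rose and 8 fell (median -0.35). Tet2, a 5-methylcytosine oxidase, was at -0.15, -1.63 and -1.49 and then at 4.55, 3.33 and 2.33 (difference 4.49 ± 0.61, adjusted p = 9.09e-05). Trim28, the corepressor of KRAB zinc finger proteins, was at 1.24, 1.23 and 1.30 and then at -0.37, 0.00 and -0.67 (difference -1.61 ± 0.20, adjusted p = 3.98e-05). The DNA methyltransferase genes Dnmt1 (-0.97), Dnmt3a (0.92) and Dnmt3b (-0.17) were not called. Of 22 p53 and cell death genes 4 rose and 1 fell (median 0.02), 22.7% called beside 17.2% of all genes. The rises included Zmat3 (3.37 ± 0.64) and Phlda3 (2.81 ± 0.41), both p53 targets, beside Ccng1. The 1 fall was Bbc3 (difference -1.15, adjusted p = 0.0084).

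**Figure D4:**
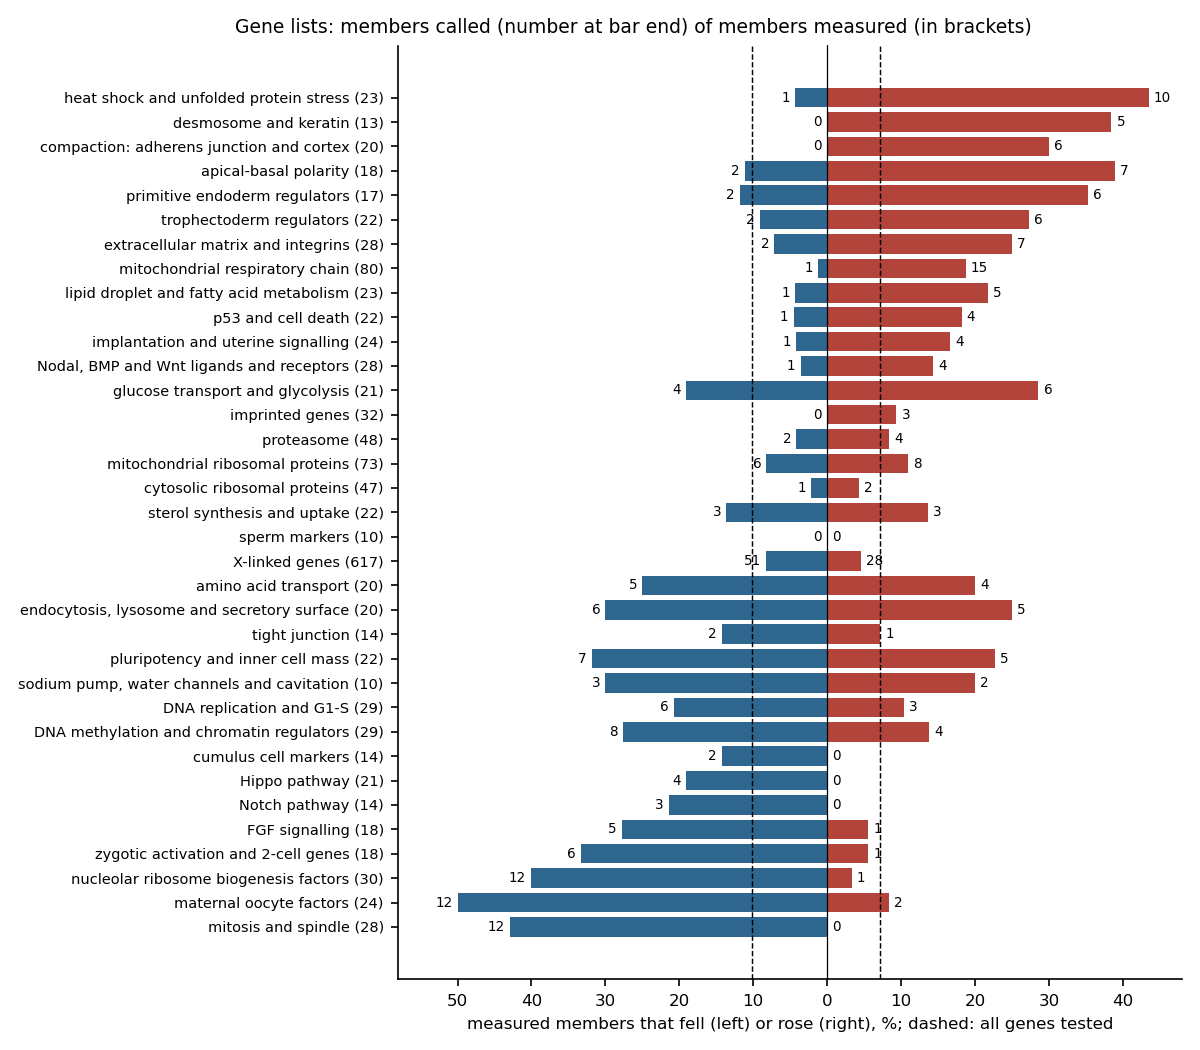
Share of the measured members of each gene list of 10 or more genes (y axis, members measured in brackets) that rose (red, right) or fell (blue, left) from IVF 8-cell embryos to IVF morulae (x axis, %), with the number called at each bar's end. Dashed lines mark all genes tested, 7.09% higher and 10.1% lower. Folding, desmosome and polarity lists reach furthest to the right and oocyte, mitosis and nucleolar lists furthest to the left.

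The degradative and secretory lists held rises and falls. Of 20 genes of endocytosis, lysosome and secretory surface 5 rose and 6 fell (median -0.10). The lysosomal proteases Ctsb, Ctsl and Ctsh fell by 2.78, 2.54 and 2.50 on the log2 scale, next to the rises of Lrp2 and Cubn. Each of the 3 was without overlap, as were 32.0% of all genes. Of 28 matrix and integrin genes 7 rose and 2 fell (median 0.24), and the rises were led by the laminin and collagen IV chains above, with Lamb1 at 1.96 ± 0.34 and a second Lamb1 probe set at 0.00. Of 32 imprinted genes 3 rose and 0 fell (median 0.00), 9.38% called beside 17.2% of all genes. Of the 3 rises 1 kept the call without each embryo. Among 617 X-linked genes 28 rose (4.54%) and 51 fell (8.27%), both below the shares of all genes. The embryos differed in X and Y transcripts within each stage: Xist was at 2.69, 2.17 and -4.99 in 8-cell embryos and at -0.45, 1.89 and -2.58 in morulae, and the Y-linked Eif2s3y at -5.41, -5.50 and 2.20 and at 1.07, -5.49 and 1.77. The part of this mixture in the X-linked count was not tested. Markers of cells that could cling to an embryo were measured as well. The mean of 14 cumulus cell markers lay between 0.12 and 0.18 in 8-cell embryos and between -0.17 and -0.04 in morulae, which did not overlap. The median difference of the list was 0.01, with 9 members higher and 5 lower in morulae. The drop of the mean was therefore not shared by most members. The list had 2 falls (14.3%, against 10.1% of all genes), Amhr2 (-3.15 ± 0.40) and Nr5a2, a gene that embryos also express. The call of Nr5a2 ended without 8-cell replicate 1 or any 1 of the 3 morulae (adjusted p 0.176, 0.0521, 0.143 and 0.0599). The part of such cells in the results was not tested. The mean of 10 sperm markers lay between -0.09 and 0.15 and between -0.10 and -0.08, with none called.

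Of the neighbouring steps, which share arrays with this one, that from the 4-cell to the 8-cell stage gave 223 rises and 138 falls (1.98% of genes, 1.23% and 0.759%), and that from the morula to the blastocyst 2287 rises and 1833 falls (22.6%, 12.6% and 10.1%). Values of the leading genes differ between these steps. Xbp1 and Slc2a1 were level from morula to blastocyst (-0.07 and -0.39, neither called), while Dsg2, Krt8 and Krt18 went up by a further 3.27, 3.48 and 4.44, all called. Csf1r, the receptor of colony-stimulating factor 1, was high in IVF morulae among the oocytes and IVF embryos: it was at -0.04, -0.01 and -0.01 in 8-cell embryos, at 0.93, 1.05 and 1.06 in morulae, and 1.05 lower on the log2 scale in blastocysts (difference -1.05, adjusted p = 9.2e-12). On the other oocyte and IVF arrays it lay between -0.05 and 0.08, but in clones it ranged from -0.18 to 4.86, and its rise was not called when all 51 arrays were fitted together (adjusted p = 0.424). Zmat3 and Phlda3 were lower again in blastocysts by 3.46 and 1.65 on the log2 scale.

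The same step was measured in 5 cloned 8-cell embryos and 5 cloned morulae, which share no sample with the IVF embryos. In clones 1784 genes rose and 1385 fell (17.4% of genes, 9.81% and 7.61%). Of the 1290 IVF rises 673 rose in clones (52.2% of the IVF rises, 37.7% of the clone rises), and of the 1845 IVF falls 577 fell in clones (31.3% and 41.7%). The opposite direction was called for 5 of the rises and 43 of the falls. The median clone difference was 1.21 for the IVF rises, against 1.86 in IVF embryos, and -0.52 for the IVF falls, against -1.85. These genes were chosen for passing the threshold in IVF embryos, a choice that by itself favours the larger step there. Chosen instead by the clone step, the 1784 clone rises had a median of 1.71 in clones and 0.95 in IVF embryos, and the 1385 clone falls -1.26 and -0.80. The medians thus describe the chosen genes, and no general difference in the size of the steps is read from them. In the test of the difference itself, clone step minus IVF step, 779 genes were higher and 251 lower (5.66% of genes, 4.28% and 1.38%), and after quantile normalization 952 and 815. The choice of genes bears on where these calls lie. Among the IVF falls 559 had a clone step that was higher and 4 one that was lower, and among the IVF rises 146 were lower and 14 higher, whereas among the clone falls 94 were lower and 47 higher, and among the clone rises 235 were higher and 23 lower. One cloned 8-cell embryo, replicate 4, was at -5.25 for the Y-linked Eif2s3y, which goes against male donor cells, and without it the test gave 810 and 275.

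**Figure D5:**
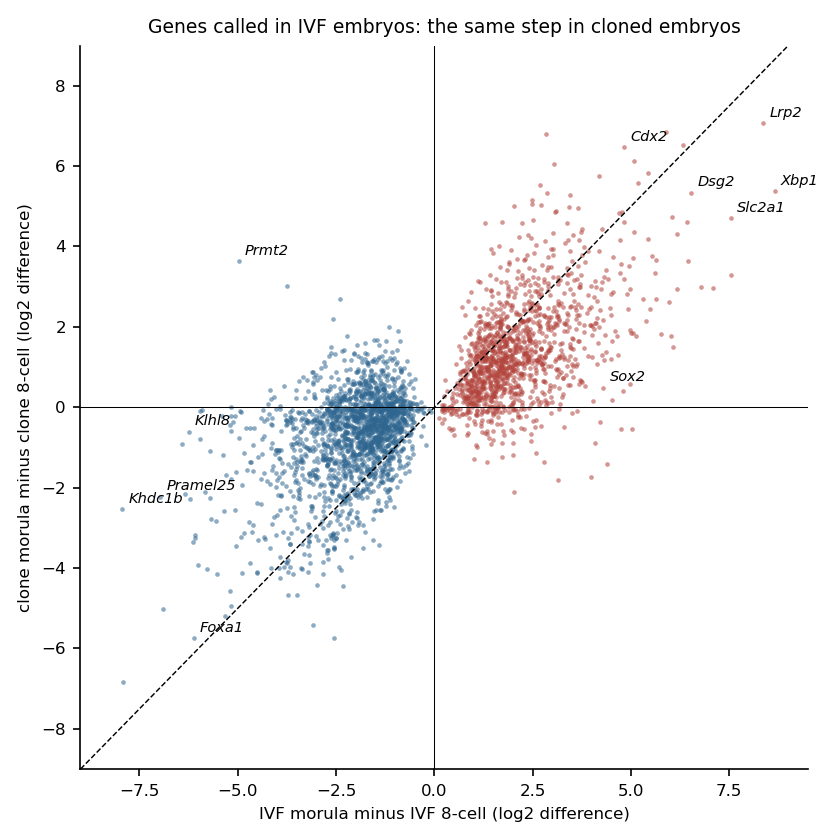
Clone morula minus clone 8-cell (y axis, 5 embryos a group) against IVF morula minus IVF 8-cell (x axis, 3 embryos a group), both log2 differences, for the 1290 genes that rose (red) and the 1845 that fell (blue) in IVF embryos. The dashed line marks equal steps; the falling genes, chosen by their IVF step, have a median clone difference of -0.52.

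Leading rises and the lineage factors Cdx2 and Nanog rose in clones too. Xbp1 rose by 5.38 ± 0.88 in clones, Lrp2 by 7.06 ± 0.50, Slc2a1 by 4.71 ± 0.87, Dsg2 by 5.34 ± 0.57, Cdx2 by 6.47 ± 0.32 and Nanog by 4.45 ± 0.47, and none of these 6 passed the test of the difference. Gata3 had the larger step in clones (5.34 ± 0.35), with a difference of the steps of 2.48 (adjusted p = 0.00408). Sox2 had a clone step of 0.49 ± 0.39 that was not called and a difference of -3.80 from the IVF step (adjusted p = 0.00266). Of the 12 leading falls 7 had a smaller fall in clones by this test; they were chosen for the size of the IVF fall, which the test uses again and which favours that direction. Khdc1b fell by 2.53 on the log2 scale in clones (difference of the steps 5.40, adjusted p = 4.69e-09), Klhl8 was not called there (-0.61 ± 0.42; difference 5.64, adjusted p = 1.84e-08) and neither was Omt2a (-0.79 ± 0.28; difference 5.16, adjusted p = 1.72e-11). Exoc3l2 (-6.83 ± 0.26) and Foxa1 (-5.74 ± 1.06) fell in clones as well, with no called difference. The cloned 8-cell embryos had lower means than the IVF 8-cell embryos for Khdc1b (-2.58 against 0.08), Pramel25 (-3.14 against 1.52) and Omt2a (-3.20 against 1.60).

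Some lineage and mitosis genes that fell in IVF embryos had a low value in clones already at the 8-cell stage, such as Hand1, Gata4 and Ttk, which were chosen after their values were seen. Others fell in both kinds of embryo, such as Foxa1 above and Klf17 (clone step -4.58, difference of the steps 0.61, adjusted p = 0.625). Hand1 had a mean of 5.16 in IVF 8-cell embryos and of 0.23 in cloned 8-cell embryos, and its clone step was -0.23 ± 0.22 with no call (difference of the steps 4.94, adjusted p = 1.68e-07). Gata4 had means of 2.78 and -1.48 at the 8-cell stage and a clone step of -0.51 ± 0.64 (difference 4.28, adjusted p = 0.00141). Ttk had means of 0.82 and -1.31 and a clone step of 0.20 ± 0.27 (difference 2.20, adjusted p = 0.000167). All 3 genes had a low morula mean in both kinds of embryo. By list, 12 mitosis genes fell in IVF embryos, against 6 falls and 3 rises in clones, and 3 of the 28 passed the test of the difference, all with the higher clone step. The nucleolar list had 12 and 4 falls and the maternal list 12 and 6, and in each of these lists 5 genes had a higher clone step and 0 a lower one. The heat shock and unfolded protein list had 10 rises in IVF embryos and 8 in clones, polarity 7 and 4, and the trophectoderm list 6 and 6.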

How the data were processed

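RNA of single oocytes or embryos was amplified in 2 cycles and hybridised to Affymetrix mouse arrays, per the labels' protocols. The deposited values are log2 values made with RMA, per the submitters' processing notes, with the version not given in the sources used here. In 94.3% of 45101 probe sets exactly 1 of 51 arrays is at 0 and 24 to 26 arrays lie below it, so the authors' values are centred per probe set and carry no absolute level. Gene symbols came from the platform annotation: 34945 probe sets had 1 symbol, 932 several and 9160 none, and 64 manufacturer controls were left out. Where a gene had several probe sets, the most variable one across the study stood for it, which left 18193 genes, of which 18032 matched a RefSeq gene (GRCm38.p6). Of 2402 further, variable probe sets of called genes 82.8% had the same sign as the one used. This share counts the sign alone. Further probe sets of Dsg2 ranged from 0.01 to 6.54, and variable ones of Cryab and Lamc1 gave 0.17 and 0.02.

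From these values limma 3.58.1 in R 4.3.3 fitted group means with lmFit and eBayes over the 21 arrays of MII oocytes and IVF embryos, whose 7 groups share 1 estimate of the spread, with Benjamini-Hochberg adjustment over all genes and a threshold of 0.05. The clone step came from the 30 clone arrays and the difference of the steps from all 51. Errors after ± are standard errors of these fits, the number of arrays limits the precision, and the procedure was tested on simulated data. Genes named were the 12 largest rises and falls past the threshold whose embryos did not overlap, leaving out Y-linked genes and clone or locus numbers, up to 4 members of each list with the smallest adjusted p, a fixed set of junction and lineage genes, and the 4 largest differences of the steps each way. Other list members given in the report, such as Hspa5 and Pdk1, and the ER stress elements were chosen after their values were seen. The members and lists were chosen with earlier results of these data known. Embryos of different stages shared replicate numbers, but their deviations correlated with 0.00748, 0.0468 and 0.0383 for numbers 1 to 3, so the numbers do not pair them. Alternatives covered the arrays fitted, a variation filter, the probe set, the normalization, covariates, array weights, a replicate block and each embryo left out. Some genes of the lists were not analysed here.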

Additional observations from a re-analysis of the deposited data

Results flagged for a closer look

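The step from the 8-cell stage to the morula differed between clones and IVF embryos, in the test of the difference itself, with a higher clone step for 779 genes and a lower one for 251. Each value below is the clone step minus the IVF step on the log2 scale. Among the leading IVF falls it was 5.40 for Khdc1b, 4.75 for Pramel25, 5.49 for Enpp3, 4.19 for Oog3, 5.64 for Klhl8, 2.77 for Tmcc3 and 5.16 for Omt2a, so these genes, chosen for the size of the IVF fall, fell by less in clones. Among the leading rises it was -4.10 for Akr1b8 and -3.80 for Dennd1b. Among the lineage genes it was 2.48 for Gata3, 1.83 for Tead4 and -3.80 for Sox2.

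The 4 largest differences each way included genes that moved in opposite directions. Prmt2, an arginine methyltransferase, fell by 4.97 in IVF embryos and rose by 3.63 in clones (difference 8.61), and Tgds, a sugar nucleotide dehydratase, fell by 3.75 and rose by 3.02 (difference 6.77). Mid1, an X-linked ubiquitin ligase, was not called in IVF embryos and rose by 6.56 in clones (difference 6.93), and Zfp352, a gene of 2-cell embryos, fell by 5.95 in IVF embryos and was not called in clones (difference 5.86). In the other direction the differences were -5.80 for Fbxl17, -5.72 for Fam122b, -5.56 for Etl4 and -5.29 for Smim38, all of which rose in IVF embryos. The calls for Akr1b8, Dennd1b, Tmcc3 and Tead4 were lost under at least 1 setting. That of Akr1b8 ended without IVF 8-cell replicate 3 (adjusted p 0.1) or IVF morula replicate 1 (0.0509), and that of Tmcc3 without IVF 8-cell replicate 2 (0.0549) or for the mean of all probe sets (0.0724). Dennd1b lost it under 10 settings (adjusted p from 0.0503 to 0.261, the highest for the mean of all probe sets), among them each IVF 8-cell embryo left out. Tead4 lost it under 14 settings, among them the replicate block (adjusted p from 0.0502 to 0.171, the highest without IVF morula replicate 3). The other genes above kept the call under every setting run, and all of them did so without the cloned 8-cell embryo replicate 4.

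The clone embryos were compared within their group for 40 genes, those of the leading changes and those with clone values in the text. In 17 of the 80 groups of 5 a single embryo stood apart from the other 4 by a gap over 0.71 of the group's range. For independent, normally distributed values about 1 in 20 groups would pass this rule. The genes here share the same embryos and many were chosen by their changes, so no excess over that share is read from the count. In cloned 8-cell embryos the values apart were -3.71 for Khdc1b, 4.67 for Enpp3, -2.92 for Klhl8, 3.20 for Foxa1, -2.19 for Etl4, 4.27 for Smim38, 0.96 for Mid1, -1.38 for Sox2, 0.27 for Cdx2, 1.01 for Hand1 and -0.01 for Gata4. Those of Enpp3, Klhl8, Etl4 and Smim38 were all replicate 4, the embryo with the Eif2s3y value of -5.25. In cloned morulae they were 3.10 for Dennd1b, 3.41 for Ccng1, -5.91 for Klhl8, -3.53 for Tmcc3, -0.60 for Arg1 and -3.05 for Omt2a. The groups of 3 IVF embryos are too small for this rule.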

How the results depend on the processing

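The 1290 rises and 1845 falls became 723 and 1084 when the 6 arrays were fitted alone, 789 and 1164 with the hybridisation controls as a covariate and 2206 and 2178 after quantile normalization. No gene called in both this fit and an alternative changed direction, and 1527, 1865 and 3100 of the 3135 genes were called there too. Genes that lost the call in the fit of the 6 arrays alone included Nanog, Sox2, Tfcp2l1, Cdx2, Hsp90b1, Pkp2, Prkci, Ezr and Foxa1. Leaving out single embryos gave 1029 to 1178 rises and 1462 to 1690 falls. For clones it gave 1395 to 1857 rises and 1011 to 1495 falls, and for the difference of the steps 610 to 896 higher and 176 to 307 lower, against 779 and 251. Quantile normalization gave 815 lower and 952 higher there. The cause of these shifts was not tested. The replicate block, whose numbers do not pair the embryos, gave 1256 rises and 1776 falls, 1826 and 1440 in clones, and 805 and 259 for the difference. Sos1, an FGF pathway gene, went from -0.84 to 0.10 with the mean of all its probe sets (adjusted p 0.898). With 3 single embryos a stage, small differences could not be resolved and large ones could be missed. In simulated data the procedure recovered 40 of 100 changes of 1 and 66 of 100 changes of 2 on the log2 scale. A gene that was not called is thus not shown to be unchanged. Signal over background is unknown for centred values.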

Other observations

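Gene families taken by symbol, chosen after their values were seen, extended the falls of oocyte genes. All 4 Obox homeobox genes measured fell (median -4.35), and in clones 1 of them fell. Of 15 Nlrp genes 5 fell and 0 rose, led by Nlrp9c (-5.19 ± 0.21), and of 13 PRAME-like genes 5 fell and 1 rose, Pramel12 by 2.31 ± 0.35. Of 5 Tcstv and Tcl1b genes 3 fell and 1, Tcl1b3, rose by 1.16 ± 0.30. Copies of these families are alike in sequence, and 4 of the PRAME-like, 1 of the Obox and 2 of the Tcstv and Tcl1b probe sets are marked by the manufacturer as matching more than 1 transcript, so single members are uncertain.

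The zinc finger and solute carrier families had shares near those of all genes, 7.09% higher and 10.1% lower. Of 356 zinc finger genes 35 rose and 38 fell (median 0.01), and of 347 solute carriers 33 rose and 35 fell (median 0.00). The 59 Rab GTPases, which direct membrane traffic, had larger shares both ways, with 8 rises and 8 falls. Rab17, known from polarised epithelia, rose by 4.07 ± 0.23 and Rab43 fell by 3.34 on the log2 scale. Anxa2, a membrane-binding annexin, rose by 5.37 ± 0.71, with 2 rises and 0 falls in 11 annexins. None of 20 claudins and none of 13 S100 genes was called, beside 17.2% of all genes.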
